A study of Mus musculus with 4 samples.

Results

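The weakest records of a reproducible CTCF peak list from mouse heart were examined. Hearts of B6CASTF1/J mice, F1 hybrids of the C57BL/6J and CAST/EiJ strains, were profiled by CTCF ChIP-seq; the animals were adult females, 2 months old. The 4 libraries fell into 2 pools, pool G (biological replicate 2) and pool H (biological replicate 1), each made from 2 heart biosamples and sequenced as 2 technical libraries. All libraries carried the same donor label, and no other tissue, genotype, treatment or control group was analysed here. Members were chosen by the caller's signal, a score without a stated unit: a record of the conservative list, which was made from both pools, was a member when its signal was under 80. The limit left 2916 of 54309 records (5.37%), set against the 51393 records of 80 or more, called the rest. Because the signal chose the members, all signal values below are a description with no test.

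CTCF is a zinc finger protein that binds a long, conserved DNA motif and halts the cohesin complex on chromatin, and pairs of its sites in facing orientation anchor many chromatin loops. Most of its strong sites hold a core of the motif and are shared between tissues, and in rodents copies of SINE retrotransposons of the B2 family are known to have spread CTCF motifs through the genome. A peak enters a reproducible list when replicates rank it alike, which the irreproducible discovery rate (IDR) measures.

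The members proved to be of 2 kinds, separated after the values were seen by the distance to the nearest other record of the list. Another summit lay within 500 bp of 909 members, called flanking, and none did for the other 2007, called stand-alone. The following sequences show what the stand-alone members held, with the CTCF core in capitals and the reference assembly GRCm38 (mm10) as the source; the mice also carry CAST/EiJ alleles, which the reference does not show. Repeat members 1 to 4 are the stand-alone members of lowest signal that held the most frequent exact core word within 15 bp of the summit in soft-masked (repeat) sequence outside UTRs, and each is printed with 30 bases on either side of the core in the core's own direction. They lie at chr17:27572296-27572367 (plus strand), chr4:130519243-130519314 (minus), chr7:28387897-28387968 (minus) and chr2:144593212-144593283 (minus). Their signals were 57.3, 58.3, 58.7 and 59.1.
repeat member 1: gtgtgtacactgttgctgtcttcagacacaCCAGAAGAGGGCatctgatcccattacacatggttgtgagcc
repeat member 2: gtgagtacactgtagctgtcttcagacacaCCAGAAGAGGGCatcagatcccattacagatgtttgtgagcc
repeat member 3: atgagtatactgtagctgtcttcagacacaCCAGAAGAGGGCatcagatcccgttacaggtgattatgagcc
repeat member 4: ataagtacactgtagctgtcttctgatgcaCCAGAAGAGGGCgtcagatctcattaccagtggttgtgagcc
The bases beside the core are nearly the same in these 4, but varied more over all copies of the word, as given below. Unmasked members 1 and 2 are the stand-alone members of lowest signal with another exact core within 15 bp of the summit in unmasked sequence outside UTRs. They lie at chr5:30855857-30855928 (minus strand, intron, nearest gene Mapre3) and chr2:169028669-169028740 (plus strand, intergenic), with signals of 56.2 and 62.2.
unmasked member 1: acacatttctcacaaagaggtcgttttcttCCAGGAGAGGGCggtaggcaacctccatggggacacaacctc
unmasked member 2: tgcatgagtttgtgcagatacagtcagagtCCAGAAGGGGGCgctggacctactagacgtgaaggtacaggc
Promoter members 1 and 2 are the stand-alone members of lowest signal at CpG-rich promoters outside UTRs. Their choice also required no core within 200 bp at up to 2 mismatches and no other record within 1 kb. They are printed on the plus strand, 40 bases to either side of the summit, at chr17:49564376-49564456 (Daam2, 73 bp upstream of its start) and chr8:112011602-112011682 (Terf2ip, 240 bp downstream), with signals of 59.5 and 63.5; they hold no capitals because they hold no core.
promoter member 1: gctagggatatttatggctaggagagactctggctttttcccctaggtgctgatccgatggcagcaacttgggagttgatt
promoter member 2: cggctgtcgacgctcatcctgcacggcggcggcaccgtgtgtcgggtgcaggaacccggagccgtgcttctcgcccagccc

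Flanked sites 1 and 2 show the other kind. Each run, outside UTRs, spans the core of a strong neighbouring record, in capitals, and the summit of a flanking member, and the 2 are those of lowest member signal whose neighbour had a signal of 400 or more and an exact core. Flanked site 1 lies at chr12:117769288-117769545 (minus strand, intergenic, 28.9 kb from the start of Rapgef5): the core begins at base 227 of the run and the summit of the member is base 21. Flanked site 2 lies at chr12:102702661-102702920 (plus strand, in an intron of Itpk1): the core begins at base 21 and the summit of the member is base 240.
flanked site 1: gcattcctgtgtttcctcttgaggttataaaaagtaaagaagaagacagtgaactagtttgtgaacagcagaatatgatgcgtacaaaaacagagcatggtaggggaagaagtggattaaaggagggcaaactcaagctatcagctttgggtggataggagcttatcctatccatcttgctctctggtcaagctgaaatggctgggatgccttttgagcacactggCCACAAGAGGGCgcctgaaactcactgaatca
flanked site 2: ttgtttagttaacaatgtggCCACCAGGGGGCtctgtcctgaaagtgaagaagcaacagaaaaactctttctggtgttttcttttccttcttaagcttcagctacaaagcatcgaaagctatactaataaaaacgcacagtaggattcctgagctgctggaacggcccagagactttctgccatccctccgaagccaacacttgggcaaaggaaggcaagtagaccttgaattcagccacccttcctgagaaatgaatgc
The member's signal was 10.3 at site 1 and 10.4 at site 2, while the neighbour, 210 bp and 199 bp away, had a signal of 775 and of 593. The core nearest to a match in the 100 bp around either member's own summit had 3 mismatches.

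Member signals ran from 10.3 to 79.993 with a median of 68.3, against a range of 80.004 to 889 and a median of 313 in the rest. The flanking members had a median signal of 30.6 and made up all 289 members under 20 and 273 of the 276 from 20 to under 40. The stand-alone members had a median of 71.7, with 765 of them from 60 to under 70 and 1199 from 70 to under 80. The 3 members nearest to the limit had signals of 79.993, 79.982 and 79.977, and the 3 nearest records outside it had 80.004, 80.019 and 80.026. Inside, their matched signals were 43.3, 44.8 and 59.6 in pool G and 36.4, 34.5 and 10.9 in pool H; outside, they were 45.7, 43.0 and 49.1 in pool G and 33.0, 33.1 and 31.5 in pool H. The third inside, the one far apart in the pools, was flanking, and the other 5 lay in a narrow band. The limit therefore cuts through a continuous range for the stand-alone members.

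**Figure D1:**
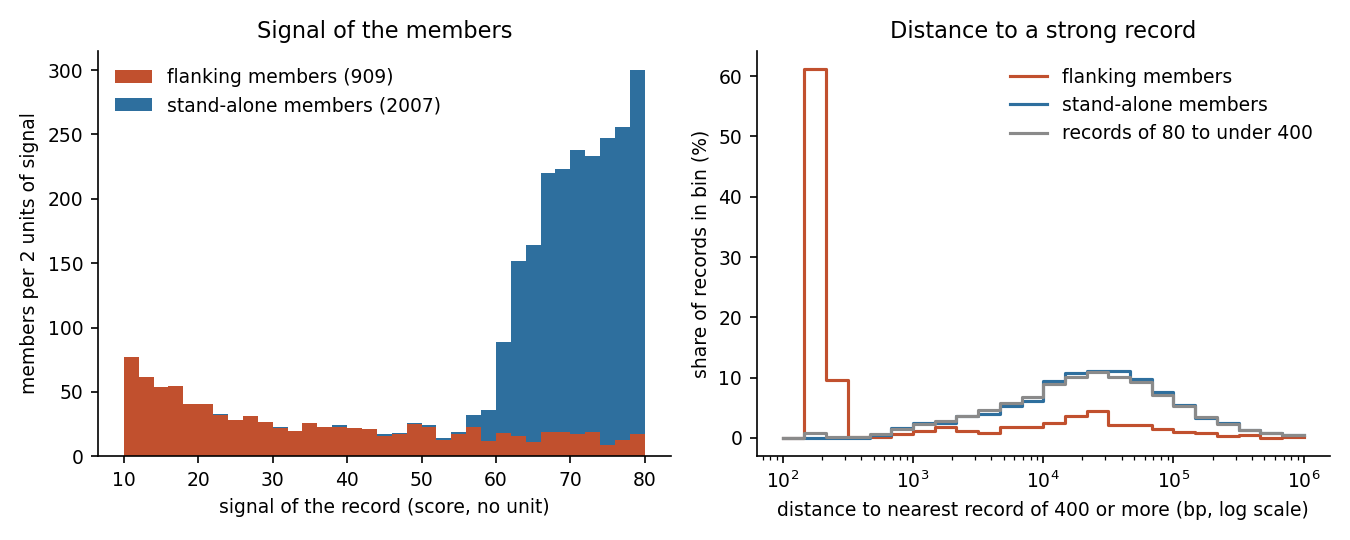
Left, number of flanking and stand-alone members by signal, in steps of 2 (score, stacked bars). Right, share of records by distance to the nearest other record of signal 400 or more (bp, log scale) for both kinds of member and for records of 80 to under 400; stand-alone members peak beside the limit of 80, while 71.9% of flanking members lay within 1 kb of a strong record.

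The position of the flanking members was narrow. The closest 2 summits in the whole list were 199 bp apart, and 891 members (30.6%) had their nearest record at 199 to 250 bp, against 1773 records of the rest (3.45%). From 251 to 500 bp there were 13 members up to 300 bp and 5 beyond. Of the 909 neighbours, 883 had a higher signal than the member, 644 were strong (400 or more), 213 lay from 80 to under 400 and 52 were members themselves, and no neighbour served 2 members. The member and its neighbour shared 1 called interval in 671 cases. Of the neighbours, 634 (69.7%) held the core. Where the neighbour had a signal of 80 or more and the core, the member's summit lay on the 3' side of the core in 206 of 615 cases (33.5%, exact 95% interval 29.8 to 37.4), so most lay on its 5' side; with an exact core it was 97 of 336 (28.9%, 24.1 to 34.0).

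Both pools were then set side by side. Each conservative record has a matched call in each pool, and for a stand-alone member the matched signals had medians of 41.1 in pool G and 30.1 in pool H, which sum to about the signal of the record: the median ratio of the sum to the record's signal was 0.994 (middle 80% 0.963 to 1.04). For flanking members the medians were 46.6 in pool G and 87.0 in pool H, and the median ratio was 7.51 (10th percentile 0.996, 90th percentile 26.2). The sum was over 2 times the record's own signal in 668 members, of which 666 were flanking (73.3% of 909) and 2 stand-alone (0.0997% of 2007), against 27 of the rest (0.0525%) and 1.28% of all records. The matched summits lay within 100 bp of the record in both pools for 1975 of 2007 stand-alone members (98.4%) and 292 of 909 flanking members (32.1%), against 51284 of the rest (99.8%). In 256 flanking members neither pool's summit did, and in 328 pool G's did alone, against 33 with pool H's alone.

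**Figure D2:**
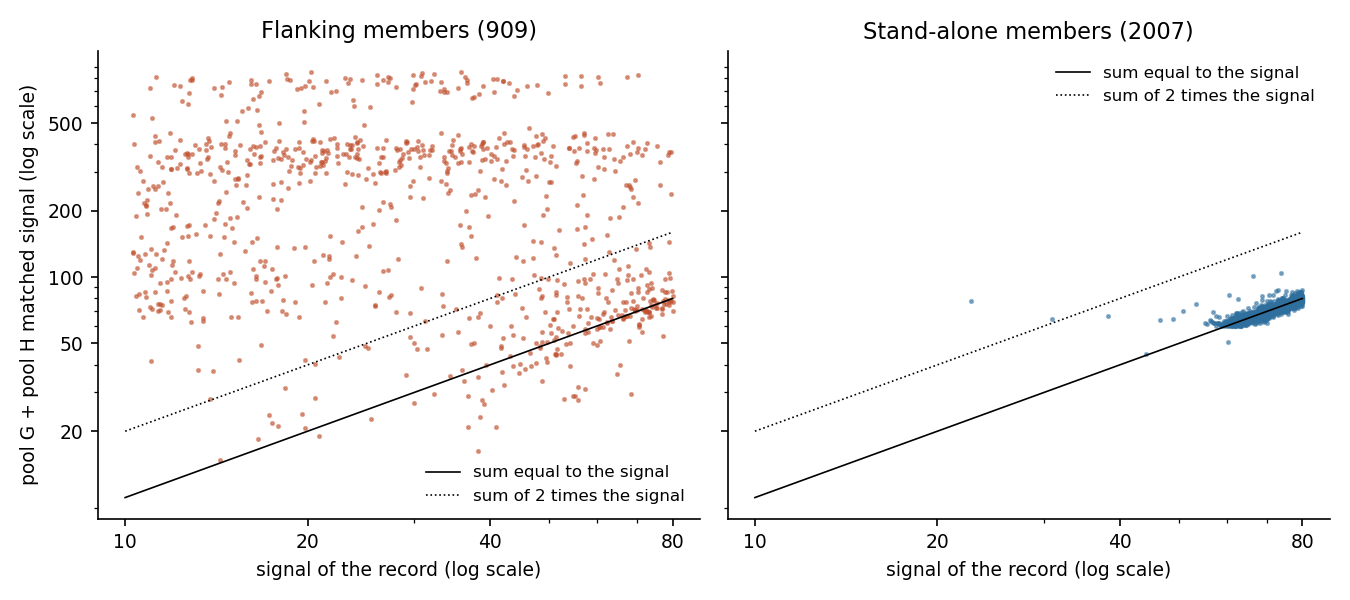
Sum of the matched pool G and pool H signals against the signal of the record (both log scale, 1 point per member). The stand-alone members (right) lie along the line of equal values apart from a few, and most flanking members (left) lie above the dotted line of 2 times the signal.

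The name of the list as reproducible therefore rests on different evidence for the 2 kinds. The scaled IDR, a score on which 540 stands for an irreproducible discovery rate of 0.05 and 830 for 0.01, reached its highest value of 1000 in 823 flanking members (90.5%) and 428 stand-alone members (21.3%), against 96.5% of the rest. It was under 830 in 63 flanking members (6.93%) and 1302 stand-alone members (64.9%), against 2.22% of the rest. So flanking members, though of lower signal, reached the highest score more often than stand-alone members and less often than the rest. The q-values went the other way. As −log10, flanking members had a median of 3.68 and a 10th percentile of 0.302. The 10th percentile of stand-alone members was 5.10, as was the lowest value in the rest. A high scaled IDR in flanking members thus did not go with a strong q-value. In the lists thresholded for a single pool, a summit lay within 100 bp of 434 flanking (47.7%) and 436 stand-alone members (21.7%) in pool G and of 141 flanking (15.5%) and 312 stand-alone members (15.5%) in pool H, against 93.9% of the rest in pool G and 92.0% in pool H.

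By gene location, members lay at promoters (within 1 kb of any annotated transcription start) more often than the rest. The share was 24.5% of members against 20.2% of the rest, with 20.4% of all records, a difference of 4.33 percentage points (95% Newcombe interval 2.77 to 5.96), and it was higher in members on 19 of 20 chromosomes. These intervals cover counting error over records and not the spread between mice. The share was 32.6% of the flanking (29.5 to 35.7) and 20.8% of the stand-alone members (19.1 to 22.7, exact 95% intervals for shares here and below). Stand-alone members alone differed from the rest by 0.67 points with an interval that holds 0. Counting only starts of protein-coding genes, stand-alone members were 2.32 points above the rest (0.634 to 4.13). Against records of 80 to under 160 the same difference was 0.547 points, with an interval that holds 0 (-1.23 to 2.43). In pool H's own list, the stand-alone weakest records were 3.35 points above the others for any start (1.51 to 5.28). The value in pool G's list was 1.96 points (-0.876 to 5.06). Records of the rest that had another record within 500 bp were at promoters in 830 of 2095 cases (39.6%, 37.5 to 41.7), above the flanking members, so a high promoter share was not particular to weak records. These 2095 include the flanking members' own neighbours, 644 of 400 or more and 213 of 80 to under 400. The 2 shares therefore come in part from the same loci and are not independent. Intergenic summits made up 28.8% of members and 33.9% of the rest (33.6% of all), a difference of -5.09 points (-6.76 to -3.37). Against records of 80 to under 160 it was -1.41 points (-3.20 to 0.418), and with the limit at 60 it was -3.16 points (-6.29 to 0.153), both intervals that hold 0. Introns held 41.9% of members and 41.1% of the rest (41.1% of all), a difference of 0.77 points whose interval holds 0 (-1.06 to 2.62); the kinds went apart, with 32.1% of flanking and 46.3% of stand-alone members, and the sign turned under 5 alternatives. The remaining classes were small, with 52 members in 3' UTRs, 41 in coding exons, 44 in other exons and 5 in 5' UTRs away from promoters.

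CpG-rich summits, with at least 50% GC and an observed over expected CpG ratio of at least 0.6 within 100 bp on either side, made up 13.8% of members and 10.6% of the rest (10.8% of all), a difference of 3.12 points (1.89 to 4.44). They were 160 of 909 flanking members (17.6%), against 26.1% of the rest's records with another record within 500 bp, which include their neighbours. CpG-rich summits were 241 of 2007 stand-alone members, 1.38 points above the rest with an interval that just holds 0. Against the rest's records with no other record within 500 bp the difference was 2.03 points (0.656 to 3.55). Against records of 80 to under 160 it was 0.224 points (-1.23 to 1.81). At promoters, 363 of 714 members were CpG-rich (50.8%), against 42.6% of the rest's 10358 promoter records. The summit lay within 100 bp of the start at 242 of the 714, with 235 further upstream and 237 further downstream, so there was no lean to either side. The nearest start was of a protein-coding gene at 609 (85.3%), a lincRNA at 29, an antisense RNA at 18 and a miRNA at 9, against 79.1% protein-coding in the rest.

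**Figure D3:**
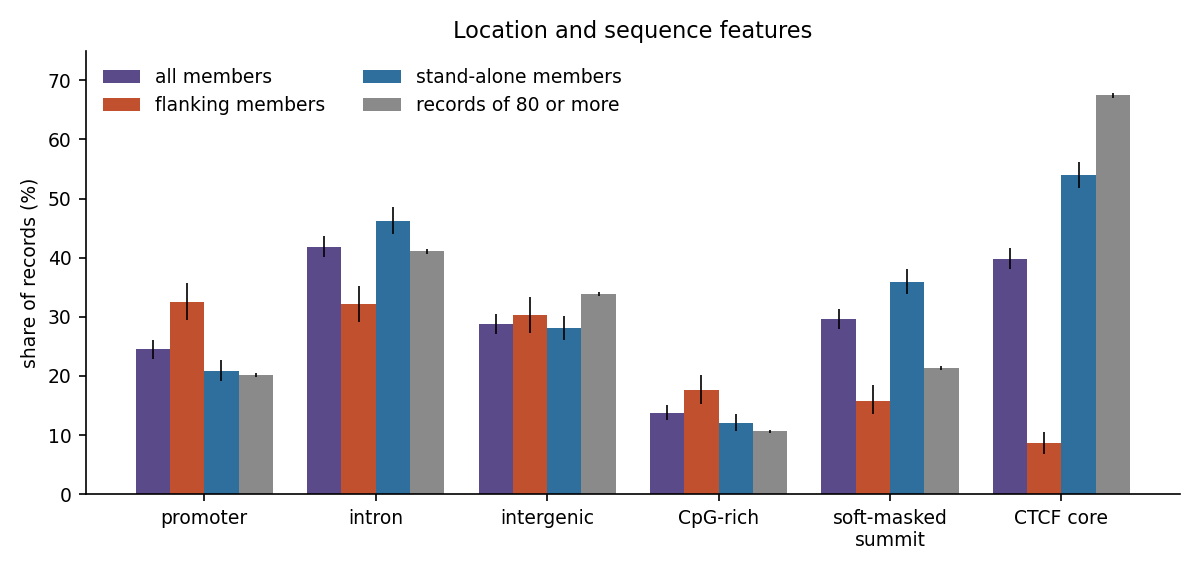
Share of all members, flanking members, stand-alone members and the rest (signal of 80 or more) by location and sequence feature (%, bars with exact 95% intervals). Of the 4 sets drawn, flanking members have the highest promoter share, 32.6%, and the lowest core share, 8.58%, and stand-alone members the highest soft-masked share, 35.9%; records of 80 or more with a near neighbour, at 39.6% for promoters, are not drawn apart.

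Repeat sequence, taken as a summit base soft-masked in the assembly, was found at 29.6% of members and 21.4% of the rest (21.8% of all), a difference of 8.27 points (6.60 to 9.99) that had the same sign on all 20 chromosomes. It was carried by the stand-alone members, at 35.9% (33.8 to 38.0), while the flanking members had 15.8% (13.5 to 18.4). The share did not keep climbing as the signal dropped: it was 37.5% of stand-alone records from 60 to under 70, 35.1% from 70 to under 80, 35.8% from 80 to under 100, 32.5% from 100 to under 160 and 10.3% at 400 or more. Set against the records of 80 to under 160 alone, which had 32.8%, the members as a whole had a lower share (a difference of -3.21 points) and the stand-alone members a higher one (3.03 points, 0.823 to 5.29). The sign also turned with the limit at 60 (-6.02 points) and in pool G's own list (-2.39 points), while pool H's list gave 8.84 points.

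The CTCF core, a 12-base pattern searched on both strands at up to 1 mismatch within 100 bp of the summit, was found at 39.8% of members and 67.5% of the rest (66% of all), a difference of -27.6 points (-29.4 to -25.8), with members lower on all 20 chromosomes. The flanking members had it in 78 of 909 cases (8.58%, 6.84 to 10.6), against 5.83% and 5.17% in windows 1 kb to the left and right of the same summits. The stand-alone members had it in 1084 of 2007 (54.0%, 51.8 to 56.2), against 5.08% and 5.28% in their windows 1 kb away. Without a mismatch the shares were 2.86% of flanking members, 28.9% of stand-alone members and 33.7% of the rest. Where found, the core lay at a median of 39.5 bp from the summit in flanking members and 10.5 bp in stand-alone members, against 7.5 bp in the rest. Records of the rest with another record within 500 bp had the core in 58.2% of cases. Within 200 bp of the summit, the flanking share was 29.8%, a window that reaches into the neighbouring peak.

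Across signal, the core share of stand-alone records was level near the limit and climbed above it. It was 54.2% from 60 to under 70, 54.3% from 70 to under 80, 57.2% from 80 to under 100, 61.4% from 160 to under 250 and 77.6% at 400 or more. Among records with another record within 500 bp it was 5.88% under 20, 24.0% from 70 to under 80, 39.6% from 160 to under 250 and 78.2% at 400 or more.

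**Figure D4:**
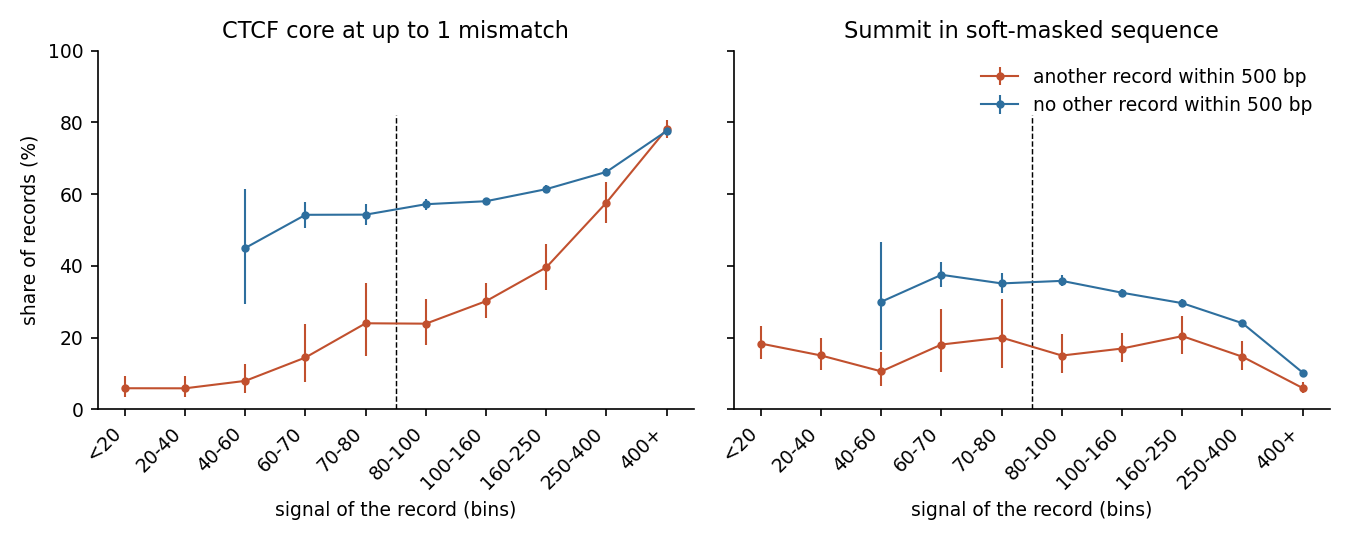
Share of records with the core (left) and with a soft-masked summit (right) by signal (bins of at least 20 records, exact 95% intervals), for records with and without another record within 500 bp; the dashed line is the limit of 80. Records with a near neighbour hold the core less often in every bin drawn for both kinds from 40 to under 400, and both kinds meet at 77.6% and 78.2% from 400.

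Core and repeat went together. Members with a soft-masked summit had the core in 685 of 864 cases (79.3%), and in 651 of 720 when stand-alone (90.4%), against 91.6% in the rest. Members with an unmasked summit had it in 477 of 2052 (23.2%), and in 433 of 1287 when stand-alone (33.6%), against 61.0% in the rest and 40.1% in records from 80 to under 160. Promoter members had it in 127 of 714 (17.8%), against 4664 of the rest's 10358 promoter records. Of the stand-alone members, at promoters 106 of 418 had one (25.4%), against 29.7% of promoter records from 80 to under 160, and elsewhere 978 of 1589 did (61.5%), against 64.3%. Over all stand-alone members the core difference was -2.67 points to records of 80 to under 160 and -13.5 points to the rest, and over all members -16.8 points and -27.6 points.

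One word made up most exact cores of the members, and its neighbouring bases changed with the signal. The word CCAGAAGAGGGC, in capitals in the repeat members, was the exact core of 455 members of the 607 with one (75.0%), against 6299 of 17325 in the rest (36.4%). All 455 copies were soft-masked, as were 6279 of the 6299 in the rest (99.7%), so this was not particular to the members. Of the stand-alone members 435 held it (21.7%), and of the flanking members 20 (2.20%), against 12.3% of the rest and 20.2% of records from 80 to under 160. The first context below is the most frequent base at each of 30 positions on either side of 423 copies in stand-alone members, and the second context the same over 977 copies in strong records; both leave out copies on a chromosome not used for sequences, and their letters are no single locus.
first context: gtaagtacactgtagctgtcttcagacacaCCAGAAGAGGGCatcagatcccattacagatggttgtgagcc
second context: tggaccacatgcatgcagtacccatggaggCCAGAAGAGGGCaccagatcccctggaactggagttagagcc
The contexts have the same base at 29 of the 60 positions beside the word. Many positions were weak majorities: the printed base held 33.8% to 93.6% of copies in the first context and 27.9% to 90.1% in the second. The first context was not the members' own. The most frequent bases in records of 80 to under 160 equalled it at 57 of the 60 positions, and those in the rest at 47. Over these positions the 423 copies of stand-alone members had a median identity of 68.3% to the first context (10th percentile 31.7%), and 154 were under 50%. Of the stand-alone members' copies, 178 (42.1%, 37.3 to 46.9) were at least 80% identical to the first context over these 60 bases, against 19.9% of the 6167 copies in the rest. By signal, the share in stand-alone records was 47.1% from 60 to under 70, 37.6% from 70 to under 80, 35.2% from 80 to under 100, 28.4% from 100 to under 160, 16.7% from 160 to under 250, 10.5% from 250 to under 400 and 2.63% from 400. The contexts were built from these records themselves, so the values describe them and no test was made. At the same threshold 0 member copies matched the second context, with an interval of 0 to 0.868% for the 423 of stand-alone members. In the rest 39 of 6167 copies did (0.632%), and from 400 in stand-alone records 11 of 950 (1.16%). The count of 0 therefore does not set the members apart.

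**Figure D5:**
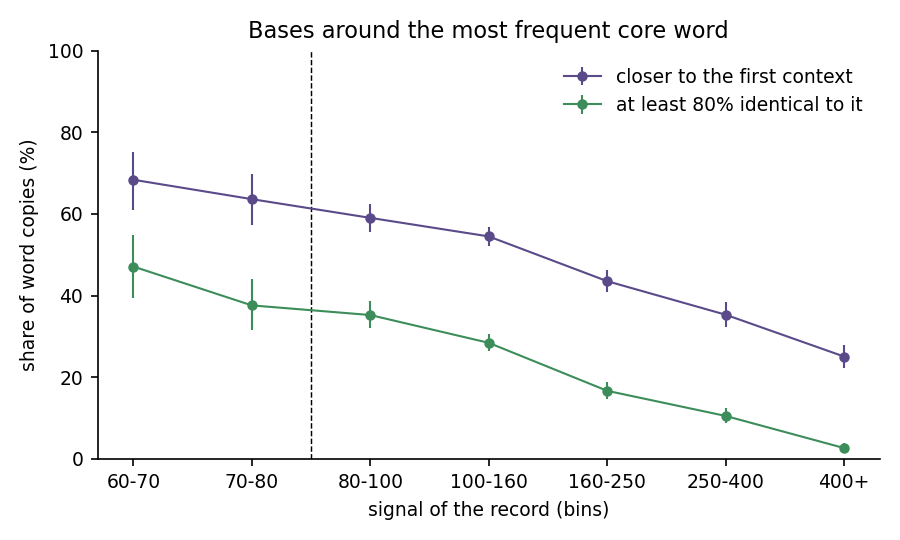
Share of copies of the word CCAGAAGAGGGC in stand-alone records by signal (points with exact 95% intervals): copies whose neighbouring 60 bases are closer to the first context than to the second, and copies at least 80% identical to the first. Both shares drop with signal, from 68.4% and 47.1% at 60 to under 70 to 25.1% and 2.63% from 400; the dashed line is the limit of 80.

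Members of lowest signal in each of 4 classes (at or away from promoters, with or without the core) were also looked up, 2 per class outside UTRs, and all 8 were flanking. The 3 printed here, on the plus strand with 50 bases on either side of the summit, are the 2 whose core, in capitals and with 1 mismatch, lay wholly in that window (on the minus strand in the second, so printed as its reverse complement) and the promoter member of lowest signal without a core. Flank with core 1 lies at chr15:37285436-37285536 (promoter of Grhl2, signal 15.1), flank with core 2 at chr6:82079353-82079453 (intronic, signal 11.5) and flank without core at chr17:56009623-56009723 (Mpnd promoter, signal 10.3).
flank with core 1: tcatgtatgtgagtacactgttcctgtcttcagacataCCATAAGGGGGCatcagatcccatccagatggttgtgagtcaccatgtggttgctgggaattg
flank with core 2: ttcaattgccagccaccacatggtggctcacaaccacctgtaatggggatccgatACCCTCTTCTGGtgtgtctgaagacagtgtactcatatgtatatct
flank without core: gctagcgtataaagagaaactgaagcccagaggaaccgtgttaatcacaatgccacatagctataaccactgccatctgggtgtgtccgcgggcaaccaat
The neighbours, at 199, 199 and 202 bp, had signals of 144, 122 and 547.

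Words of other transcription factors were sought within 50 bp of the summits, on both strands. Of promoter factors these were CCGGAAG for the ETS family, GGGCGG for the GC box, CCAAT for the CCAAT box and GCGCATGC for NRF1. Of signal-regulated factors they were TGACTCA for AP-1 and TGACGTCA for CRE. Of heart and tissue factors they were AGATAA for GATA, TAAAAATA for MEF2, ACATTCC for TEAD and CTGTCA for MEIS. The E-box was sought as CAGCTG, then as CACGTG by itself, and the TATA box as TATAAA. The words were not masked against each other or against the core. The GC box was found at 191 members (6.55%), against 2.47% of windows of the same length 1 kb to either side (difference 4.08 points, 3.14 to 5.11) and 5.91% of the rest. The ETS word was found at 43 members (1.47%), against 0.549% 1 kb away (difference 0.926 points, 0.486 to 1.46) and 1.00% of the rest. The CRE word was found at 4 members, 0 windows 1 kb away and 0.0973% of the rest. GATA and TATA words were rarer at the summits than 1 kb away, at 3.33% against 5.66% (difference -2.33 points, -3.19 to -1.42) and 4.90% against 6.96% (-2.06 points, -3.05 to -1.01). The rest showed the same, with -2.38 points for GATA and -2.99 points for TATA. The MEF2 word, bound by a family of muscle factors, was at 1.65% of members, against 1.39% 1 kb away (-0.266 to 0.852 points) and 1.00% of the rest. For the 8 words other than GC box, ETS, CRE, GATA and TATA the interval of the difference held 0 over all members, and their shares ran from 0.274% (NRF1) to 10.3% (CCAAT). For CCAAT the kinds went opposite ways from their windows 1 kb away, by 3.03 points in flanking members (0.482 to 5.74) and by -3.31 points in stand-alone members (-4.88 to -1.67), against -2.34 points in the rest. In RefSeq promoters of GRCm38.p6, 300 bases long and so not of the same length, the GC box was in 35.7% and the ETS word in 8.86%.

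The distance from members to the nearest record of 400 or more had a median of 14346 bp (order-statistic 95% interval 12936 to 15714). It was 209 bp in flanking and 24559 bp in stand-alone members (22843 to 26715), against 20684 bp in the rest (20353 to 21052). The rest includes the strong records themselves. Its records of 80 to under 400 had a median of 22951 bp (22484 to 23369), which lies within the stand-alone interval. Within 10 kb of such a record lay 43.1% of members and 31.8% of the rest (32.4% of all), a difference of 11.3 points (9.45 to 13.1). This came from the flanking members, at 80.5%, since the stand-alone members had 26.1% (24.2 to 28.1). The split itself set part of that contrast, because it used the distance to the nearest record, which was strong for 644 of 909 flanking members. Without the members that shared an interval with a strong record the difference from the rest turned to -3.84 points. Between stand-alone members and records of 80 to under 160 the difference was -1.98 points, with an interval that holds 0 (-3.99 to 0.123). Both strength classes come from the same column of the list, so the distances are a description.

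Among genes, 671 of 21938 protein-coding genes (3.06%) had a member within 1 kb of a start, against 34.6% with any record. At 279 of the 671 the members were the only records, and 269 of these had a stand-alone one; 392 also had a record of 80 or more and 237 one of 400 or more. Lists of cardiac, other cell type, CTCF and cohesin, and housekeeping genes, 237 distinct genes in 14 lists, gave 3 with a member: Srf and Esrrg of 25 cardiac transcription factors, and Myc of 16 natriuretic peptide and stress genes. The sarcomere (24 genes), calcium handling (24), energy metabolism (24), endothelial, fibroblast, smooth muscle, immune, skeletal, neuronal, hepatocyte, CTCF and cohesin (15) and housekeeping (18) lists had 0. With 3.06% of all genes holding a member, counts of 0 in lists of this size set none of them apart. A peak list holds no expression, so the tissue label could not be checked against heart markers.

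The 3 list genes show both kinds. At Srf, which encodes the serum response factor of muscle genes, a flanking member at chr17:46555837-46556264 lay 75 bp upstream of a start with a signal of 14.7. Its matched signals were 253 in pool G and 257 in pool H, at summits 211 and 199 bp away, and its neighbour 200 bp off had 511. At Myc, a growth-promoting transcription factor, a flanking member at chr15:61985398-61985809 lay 137 bp upstream of a start with a signal of 11.5. Pool G had a call of 21.5 at 10 bp, whereas pool H's matched call of 183 lay 200 bp away, beside a neighbour of 430. At Esrrg, a nuclear receptor that drives oxidative metabolism genes in heart, a stand-alone member at chr1:187609179-187609287 lay 175 bp downstream of a start with a signal of 77.5, made of 45.9 in pool G and 31.7 in pool H at 15 and 0 bp. It held no core at up to 2 mismatches and its nearest record was 154589 bp away.

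The 10 members of lowest signal, 10.3 to 10.5, were all flanking. Their nearest protein-coding genes were Pik3c3, Mpnd, Hspa1b (an inducible heat shock protein), Slc41a3, Rapgef5, Adgrb1, Gm4969, Itpk1, Myf5 (a myogenic factor of skeletal muscle) and Olfr279 (an olfactory receptor). Of these genes, Mpnd and Slc41a3 had a start within 1 kb of the member's summit. The others had theirs from 2.01 kb (Itpk1) to 312 kb (Adgrb1) away, with 7.8 kb at Hspa1b, 12.2 kb at Myf5 and 13.4 kb at Olfr279. None of the 10 had the core, and their neighbours, 199 to 211 bp away, had signals of 81.0 to 775. At Rapgef5 the matched calls were 36.8 in pool G, at the member's own summit, and 367 in pool H, 212 bp away; at Mpnd they were 325 and 222, at 202 and 199 bp. In 7 of the 10 both matched summits lay over 100 bp away, and in the other 3 (Rapgef5, Itpk1 and Olfr279) pool G's lay within 13 bp.

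Some promoters held a stand-alone member and no other record. The 8 of lowest signal, named after their values were seen, were at Ganc, Tprn, 2610008E11Rik, Ndrg1, Agbl3, Epm2aip1, Smim26 and Napepld, with signals of 46.5 to 59.2. Pool G values were 34.7 to 39.3 and pool H values 25.1 to 27.0. Pool G was higher in all 8, as it was in the medians of all stand-alone members (41.1 against 30.1) and of the rest (175 against 137). Ndrg1 encodes a stress-responsive protein and Napepld the phospholipase that makes N-acylethanolamines. Their summits lay at offsets of -805 to 461 bp from a start (negative is upstream), 7 of the 8 were unmasked and 2 held the core, at Tprn with 1 mismatch and at Smim26, which is repeat member 4, with none. Inside gene bodies, 20 protein-coding genes held 3 or more members. The most, 13 of 278 records, were in Gm20388 and 6 of 119 in Fgfr2, whose annotated spans are 4435 kb and 2961 kb; both shares are below the 5.37% of all records that were members. Sh3pxd2a held 5 of 22 records, 2 of them stand-alone, and Col4a2, a basement membrane collagen, 4 of 13.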

How the data were processed

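The authors made thresholded and ranked CTCF peak lists from pool G, pool H and both, as stated in readme texts deposited beside the samples; 7 of 8 lists were used. The authors deposited the caller's signal and the scaled IDR as scores, the signal without a stated unit, and the q-value as −log10, which chose no member. Peaks are on mm10. The aligner was not given in the sources used here, nor was the caller, and the control alignment was not analysed here. In the ranked list of both pools, 71.7% of first matched calls equalled a pool H record and 77.3% of second ones a pool G record, with 0 crosswise. Read depth is unknown, so intervals cover counting error only, and the pools, not the records, are the replicates.

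Each summit took the first GENCODE M21 class that held it: promoter, UTR, coding exon, any other exon, intron, intergenic. Sequence came from GRCm38.p6 with its soft-masking; no repeat family was assigned. The CTCF core had to lie whole within 100 bp of the summit. Named genes were those of 14 lists with a member within 1 kb of a start, and those nearest to the 10 members of lowest signal. Members and lists were chosen with earlier results of these data known; the split at 500 bp, the contexts and the further examples followed the values. Word search, distances and intervals were tested on simulated data. The work ran in Python 3.11.15 with scipy 1.17.1, pandas 2.3.3, numpy 2.4.6 and, for plots, matplotlib 3.10.9. Alternatives are given in the closing section.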

Additional observations from a re-analysis of the deposited data

Results flagged for a closer look

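The pools differed in the sign of the repeat result. When the weakest records of a pool's own list, in the same share of the list, took the place of the members, their soft-masked share was 2.39 points below that of the list's other records in pool G (-2.39) and 8.84 points above it in pool H (8.84). The difference between the pools was not tested. The weakest records were also limited to stand-alone ones, a choice made after seeing the data, while the other records of each list were not limited. The soft-masked share of these weakest records was 33.6% against 21.6% in pool G and 33.4% against 20.5% in pool H. Of the weakest records, 771 of 2935 were stand-alone in pool G and 2005 of 2716 in pool H.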

How the results depend on the processing

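Of 104 alternative values for 7 differences (members minus rest, in percentage points), 78 kept the sign and the side of 0 of their interval, 13 changed sign, 7 lost and 6 gained an interval that leaves out 0. The core share changed in none of these ways in its 16, which ran from -58.5 to -12.9. Not among them, stand-alone members against records of 80 to under 160 gave a smaller core difference of -2.67 (-5.01 to -0.354). Without a mismatch that difference was -1.96, with an interval that holds 0 (-4.05 to 0.200). With the limit at 60, where 794 members remained, the intergenic difference was -3.16 with an interval that holds 0, the intron difference -8.52 and the soft-masked difference -6.02; at 100 the intron difference was 2.68. In the second list of both pools, intron gave 2.43 and nearness to a strong record 0.31. Pool G alone gave -3.31 for intron and -2.39 for soft-masked, and pool H alone -0.71 for intron. An IDR of 0.01 gave -2.77 for intron. With 1 record per interval, intron gave 3.47 and nearness -3.63. Against records of 80 to under 160, intergenic gave -1.41, intron -1.42 and soft-masked -3.21. Without members that share an interval with a strong record, nearness gave -3.84. Stand-alone members only, chosen after seeing the data, gave 0.67 for promoter, 5.19 for intron, 1.38 for CpG-rich and -5.68 for nearness; against stand-alone records, 1.50 for promoter and 4.60 for intron; in pool G, 1.96 for promoter and -3.80 for nearness; in pool H, 2.53 for intron and -3.91 for nearness. The cause was not tested. No paired analysis was possible because every column joins the libraries of a pool, or of both pools, and the results compare records within a list; pool G and pool H values are given side by side without a test. Unknown read depth limits the detection of the weakest records.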
